A study of Homo sapiens with 32 samples.

Results

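The SKOV3 comparison was made of 4 peak lists of N6-methyladenosine (m6A), taken by their labels from the 12 peak lists of a study with 32 libraries. SKOV3 is an established human ovarian adenocarcinoma line. Chromatin-associated RNA was immunoprecipitated with an antibody against m6A, alongside spike-in RNA with and without the mark, and sequenced with strand kept. There were 2 lists of cells with a control hairpin, whose genotype is given as WT, and 2 of cells with a hairpin against METTL3, given as knockdown. The labels name neither the hairpin, nor the time after its introduction, nor whether each replicate was its own culture, so the tests here cover how far these lists scatter, which may be technical variation alone. Peaks on the autosomes and X numbered 28918 and 29102 in control and 26178 and 26865 in the lists labelled shMETTL3.

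m6A is placed on RNA while it is being made, mostly by a complex in which METTL3 is the catalytic subunit, METTL14 holds the RNA, and WTAP, VIRMA and others direct the complex. FTO and ALKBH5 can remove the mark, and proteins with a YTH domain read it. On chromatin-associated RNA, which holds unfinished transcripts with their introns, regulatory RNAs and RNA of repeats, the mark has been tied to RNA decay and to the state of the chromatin beneath. A peak needs both an RNA and a mark on it, so with peak lists alone less RNA and less m6A on the same RNA cannot be told apart, and neither can fewer cells that make the RNA.

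The labels were checked first. Of the peaks in the lists labelled SKOV3 shMETTL3, 56.5% on average (55.8 to 57.2% over 4 pairs of lists) overlapped a peak of a SKOV3 control list on the same strand by at least 1 bp. A larger share, 82.0% (80.7 to 83.0%), overlapped a peak of a control list of OVCAR8, the study's other ovarian cancer line. Between the replicates labelled SKOV3 shMETTL3 the share was 86.8%. SKOV3 control peaks were found in OVCAR8 control lists at 46.9%, and in the lists labelled SKOV3 shMETTL3 at 50.02%. In the other direction, 95.9% of the peaks in lists labelled OVCAR8 shMETTL3 lay on a SKOV3 control peak, against 69.3% on an OVCAR8 control peak. The lists labelled SKOV3 shMETTL3 were thus nearer to OVCAR8 control than to SKOV3 control, and every direction below is a direction between libraries as labelled. The share of a difference that belongs to METTL3, and the share that belongs to the line a library came from, cannot be told apart in these lists; OVCAR8 control values stand beside many of the results, but not all.

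**Figure D1:**
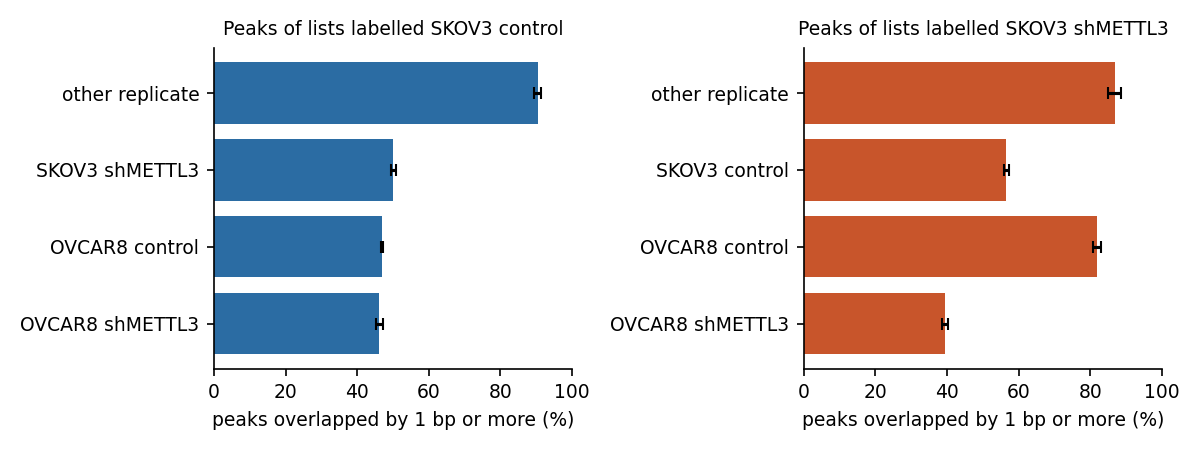
Percent of peaks overlapped by at least 1 bp on the same strand in another list, for the lists labelled SKOV3 control (left) and SKOV3 shMETTL3 (right). Bars are means over pairs of lists and whiskers the lowest and highest pair; the lists labelled SKOV3 shMETTL3 reached 82.0% with OVCAR8 control and 56.5% with SKOV3 control.

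METTL3 itself, the targeted gene, gave 1 and 3 peaks in control against 0 and 0 in the lists labelled shMETTL3. OVCAR8 control lists held 0 and 1 METTL3 peaks, so the numbers separate neither the lines nor the hairpins, and a peak on METTL3 RNA does not measure its level. ERBB2, the receptor tyrosine kinase gene for whose amplification SKOV3 is known, had 1 peak in each of the 4 lists and 1 in each OVCAR8 control list. Among lineage markers, PAX8, a transcription factor of Muellerian epithelium, held 2 and 2 control peaks and 5 and 4 in the lists labelled shMETTL3, against 6 and 6 in OVCAR8 control. No peak fell in WT1, SOX17, EMX2, FOLR1 or MSLN in any of the 4 lists. The epithelial keratin gene KRT7 held 8 and 6 control peaks and 9 and 7 in the lists labelled shMETTL3, while CDH1, EPCAM and KRT19 held none. KRT8 held 4 and 3 against 6 and 6, with 7 and 5 in OVCAR8 control. KRT18 held 0 and 0 against 4 and 3, with 2 and 2 in OVCAR8 control. Markers of other cell types were mostly bare. Of 22 intestinal genes 2 held a peak (8 and 7 peaks in control, 2 and 1 in the lists labelled shMETTL3), of 20 leukocyte genes 4 (5 and 4 against 5 and 5), and of 18 fibroblast and endothelial genes 3 (7 and 6 against 0 and 0). PTPRC, CD3E, MS4A1, CD14, CDX1, CDX2, VIL1, LGR5, VWF and CDH5 were at 0 in all 4 lists.

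A control region was defined as a stretch of same-strand peaks, merged, that held a peak in both control lists, and a knockdown region likewise in the lists labelled shMETTL3. A control region was lost where neither list labelled shMETTL3 had a peak on it, and a knockdown region was gained where neither control list did. There were 25545 control regions, of which 11341 (44.4%) were lost and 14204 kept, and 22438 knockdown regions, of which 8190 (36.5%) were gained. These counts of non-overlap carry no test. Within a group, between 8.73% and 10.6% of a control list's peaks, and between 11.4% and 14.9% of those of a list labelled shMETTL3, were missing from the other replicate.

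Some of the strongest regions that were present in one pair of lists and absent from the other lay across transcription start sites or, at PLXNA2, just downstream of one. Windows from among the 3 strongest lost and the 3 strongest gained are shown, because in them a region present in both lists of one group and in neither of the other sits at the head of a gene. Each is the RefSeq window (GRCh38.p14) from 250 bases before to 50 bases after the start, 5′ to 3′ on the gene's strand, and capitals mark the bases inside the m6A region.
FMN2: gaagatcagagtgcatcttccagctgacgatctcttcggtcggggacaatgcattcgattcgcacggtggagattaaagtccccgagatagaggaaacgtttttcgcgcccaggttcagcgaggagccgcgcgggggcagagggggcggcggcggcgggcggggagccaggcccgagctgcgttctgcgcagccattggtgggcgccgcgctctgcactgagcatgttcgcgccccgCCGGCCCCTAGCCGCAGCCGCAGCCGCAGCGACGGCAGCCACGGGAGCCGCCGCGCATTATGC
NT5E: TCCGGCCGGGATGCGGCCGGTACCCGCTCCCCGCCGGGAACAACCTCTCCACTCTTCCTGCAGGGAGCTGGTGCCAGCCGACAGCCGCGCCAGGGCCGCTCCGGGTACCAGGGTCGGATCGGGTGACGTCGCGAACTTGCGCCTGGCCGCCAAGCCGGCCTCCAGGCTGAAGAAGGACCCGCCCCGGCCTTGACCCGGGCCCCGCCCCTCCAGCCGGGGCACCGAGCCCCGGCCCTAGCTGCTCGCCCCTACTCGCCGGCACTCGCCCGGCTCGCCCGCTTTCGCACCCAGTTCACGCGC
PLXNA2: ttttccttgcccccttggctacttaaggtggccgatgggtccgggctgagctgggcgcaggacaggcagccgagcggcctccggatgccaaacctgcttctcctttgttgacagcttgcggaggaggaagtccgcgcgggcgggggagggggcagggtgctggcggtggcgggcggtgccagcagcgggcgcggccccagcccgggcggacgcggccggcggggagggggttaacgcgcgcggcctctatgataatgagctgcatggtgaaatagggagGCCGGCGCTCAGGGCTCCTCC
MECOM: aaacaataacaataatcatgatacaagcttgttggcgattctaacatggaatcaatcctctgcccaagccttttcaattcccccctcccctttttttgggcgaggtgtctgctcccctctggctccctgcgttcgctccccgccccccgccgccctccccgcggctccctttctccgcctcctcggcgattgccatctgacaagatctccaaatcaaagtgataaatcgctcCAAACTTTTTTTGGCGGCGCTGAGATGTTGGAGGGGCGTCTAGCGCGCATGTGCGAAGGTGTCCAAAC

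FMN2, a formin that nucleates actin filaments, had its window at chr1:240091633-240091932 on the plus strand, and its lost region ran over 2225 bp at chr1:240091870-240094094. The summit fold over local background, as the authors' peak caller gave it, was 43.0 and 42.6 in the control lists, and no list labelled shMETTL3 and no OVCAR8 control list had a peak there. At NT5E, the gene of the ecto-nucleotidase CD73 (window chr6:85449833-85450132), the region covered all 300 bases, with folds of 28.3 and 28.2 in control and no peak in the other lists. HS3ST3A1, a heparan sulfate sulfotransferase, stood between them with folds of 31.3 and 31.5. All 3 regions were thus as strong in one control replicate as in the other and were without a peak in the remaining SKOV3 and OVCAR8 control lists.

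The gained windows had the opposite OVCAR8 values. PLXNA2, a semaphorin receptor (window chr1:208244335-208244634, minus strand), had folds of 27.7 and 26.4 in the lists labelled shMETTL3, TMEM178B had 20.3 and 16.4, and MECOM, a zinc-finger transcription factor gene of the Muellerian list (window chr3:169663663-169663962, minus strand), had 14.6 and 11.4. Each of these 3 regions held 1 peak in each OVCAR8 control list and none in SKOV3 control. A search for GGACT, the commonest form of the m6A consensus, found it on neither strand of the NT5E and MECOM windows, and once on the opposite strand only of the FMN2 and PLXNA2 windows; the motif overlaps no other searched motif. Over all 34961 promoter windows 25.3% held it in sense, over the 367 windows touched by a lost region 33.0%, over the 814 touched by a kept region 28.0%, and over the 267 touched by a gained region 26.6%. Median GC content was 58.7% over all windows and 65.3, 64.7 and 63.7% in those 3 sets. The windows held few of the regions, namely 341 of the lost, 737 of the kept and 249 of the gained.

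The number of peaks was lower in the lists labelled shMETTL3, at 26521.5 ± 486 (SD, n = 2) against 29010 ± 130 (SD, n = 2) in control, a difference of -8.58%. Bases covered were 11.41 and 11.96 Mb against 13.75 and 14.08 Mb, a log2 ratio of -0.25, and the median peak width was 299 and 305 bp against 318 and 323 bp. The groups did not overlap in any of these measures, and the exact permutation test (two-sided) gave p = 0.333 for each, the smallest that 2 lists against 2 allow. Depth was read from the peaks themselves, where fold and p-value together give back the number of reads at the summit. The median was 85 and 89 reads in control and 80 and 84 in the lists labelled shMETTL3, and the weakest peak called had 31 and 33 against 30 and 32. The lowest number of reads expected by chance that any peak's fold implies was 13.4 and 14.1 against 12.6 and 13.6, and the groups overlap (exact permutation p = 0.667). Between the groups the lowest number of reads that could be called thus differed by 1 read, and the medians by 5.

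A larger share of peaks lay in protein-coding genes in the lists labelled shMETTL3. By the midpoint of the peak, 83.3 and 83.3% of control peaks lay in protein-coding genes, against 86.7 and 86.9% of peaks in the lists labelled shMETTL3. Genes of long non-coding RNA held 5.91 and 5.97% against 5.19 and 5.12%, other genes such as pseudogenes 2.69 and 2.68% against 1.99 and 1.93%, and stretches between genes 8.12 and 8.03% against 6.10 and 6.09%. In none of the 4 classes did the groups overlap, though none can pass a test with 2 lists a group (exact permutation, Benjamini-Hochberg adjusted p = 0.333 for each). OVCAR8 control lists held 86.4 and 86.3% of their peaks in protein-coding genes and 6.68 and 6.61% between genes, nearer to the lists labelled shMETTL3 than to SKOV3 control.

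Loss and gain were uneven over the same classes. Of control regions in protein-coding genes 40.4% of 21296 were lost, in long non-coding RNA genes 62.9% of 1519, in other genes 51.5% of 689 and between genes 69.5% of 2041, against 44.4% of all. Gain among knockdown regions ran from 26.1% in other genes and 34.6% in protein-coding genes to 53% in long non-coding RNA and 53.4% between genes, against 36.5% of all. Non-coding and intergenic regions were therefore the ones that most often had no counterpart, in both directions. Regions antisense to the gene they lay in were lost at 61.3% (940 regions) and gained at 52.9% (787), while sense regions were lost at 39.2% (14657) and gained at 34.0% (13534).

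Regions in long genes were lost more often than those in short ones. The share lost was 35.0% in genes under 20 kb, 35.0% from 20 to 100 kb, 44.7% from 100 to 300 kb and 65.3% over 300 kb, and the share gained was 34.2, 32.8, 37.1 and 45.6%. Along the gene, from the first to the last quintile, the share lost was 40.9, 43.8, 42.5, 39.6 and 32.7%, lowest in the 3′ quintile, where the m6A of finished messages is usually densest. The share gained moved less along the gene, between 31.9% in the last quintile and 36.1% in the middle one. On the 2 strands loss was alike, at 44.1 and 44.7%. By chromosome, loss ranged from 26.1% (chromosome 16) to 61.7% (chromosome 8) and 60.9% (chromosome 4), and gain from 25.5% (chromosome 4) to 53.7% (chromosome 18) and 62.2% (chromosome X).

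Weak and narrow regions made up most of both lost and gained sets. Among the weakest decile of control regions 61.3% were lost and among the strongest 20.7%, and among the weakest decile of knockdown regions 58.1% were gained and among the strongest 9.90%. Lost regions had a median width of 313 bp and a median of 75.5 reads at the summit, and kept regions 463 bp and 114 reads. Gained regions had 303 bp and 77 reads, and knockdown regions that were kept 434 bp and 96 reads.

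Whether OVCAR8 control cells had a peak on a region separated lost from kept regions more sharply than strength did. Of the 13229 control regions with a peak in an OVCAR8 control list, 715 (5.40%) were lost, and of the 12316 without one, 10626 (86.3%). The split held across strength, since the share lost went from 12.2% in the weakest decile to 0.373% in the strongest where OVCAR8 control had a peak, and from 89.5 to 77.1% where it had none. Of the 8190 gained regions 90.8% had an OVCAR8 control peak, as did 91.4% of the knockdown regions that were kept. Counted over the study's 3 other control lines, OVCAR8 and the colorectal lines LOVO and RKO, loss was 92.2% where none of them held the region, 51.4% with 1, 43.8% with 2 and 3.71% with all 3. A label check and this split use the same lists, so the split is a second view of the overlap above and not separate evidence.

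**Figure D2:**
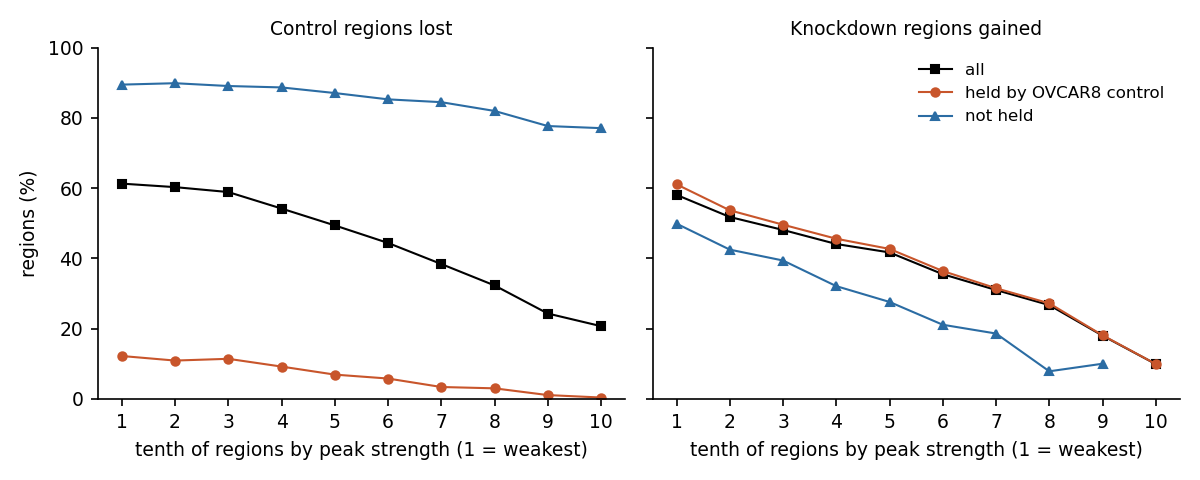
Percent of control regions lost (left) and of knockdown regions gained (right) by decile of peak strength, from weakest (1) to strongest (10). Black squares are all regions, orange circles those with an OVCAR8 control peak and blue triangles those without (groups under 20 regions left out); without an OVCAR8 control peak loss was 89.5% in the weakest decile and still 77.1% in the strongest.

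In the 12261 regions that had a peak in all 4 lists, the peaks were about as wide in both groups, with medians of 464 and 473 bp in control and 432 and 445 bp in the lists labelled shMETTL3. The width in the lists labelled shMETTL3 was the smaller in 55.0% of them, with a median log2 difference of -0.03. Over the 8054 of these also present in both OVCAR8 control lists, summit folds ranked alike between replicates (Spearman's rho across regions 0.923 in control and 0.864 in the lists labelled shMETTL3). Between SKOV3 control and the lists labelled shMETTL3 rho was 0.595, between OVCAR8 control and the lists labelled shMETTL3 0.742, and between both control lines 0.431. Regions within a list share its library and depth and are not replicates, so these are descriptions. Even where all lists had a peak, its height in the lists labelled shMETTL3 ranked more like OVCAR8 control than like SKOV3 control.

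Peaks were counted per gene whatever their strand, so sense and antisense peaks were counted together. Only peaks that lay in exactly 1 gene were used, and those in several genes, 13.7 to 13.9% of each SKOV3 list, were left out. The number plus 1 was compared on the log2 scale with limma over the 3754 genes that had a mean of at least 2 peaks a list, of 9415 with any. Fewer peaks were found in the lists labelled shMETTL3 in 826 genes (22%) and more in 789 (21.0%), at a Benjamini-Hochberg adjusted p below 0.05, and 2139 were not called. The median log2 difference over all tested genes was 0.0. Of the genes with fewer peaks 285 had none left in either list labelled shMETTL3, and in 196 of them both control lists had held 5 or more. Of those with more, 183 had none in either control list, and 123 of them reached 5 or more in both lists labelled shMETTL3. Protein-coding genes made up 733 of the falls and 739 of the rises (of 3509 tested), and long non-coding RNA genes 64 and 40 (of 168). Genes with fewer peaks were longer (median 106 kb) than those with more (72.4 kb) and those not called (47.8 kb). The number of falls dropped to 326 without control replicate 1 and to 317 without control replicate 2, and the number of rises to 345 and 332 without replicates 1 and 2 labelled shMETTL3 and to 522 and 517 without control replicates 1 and 2.

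**Figure D3:**
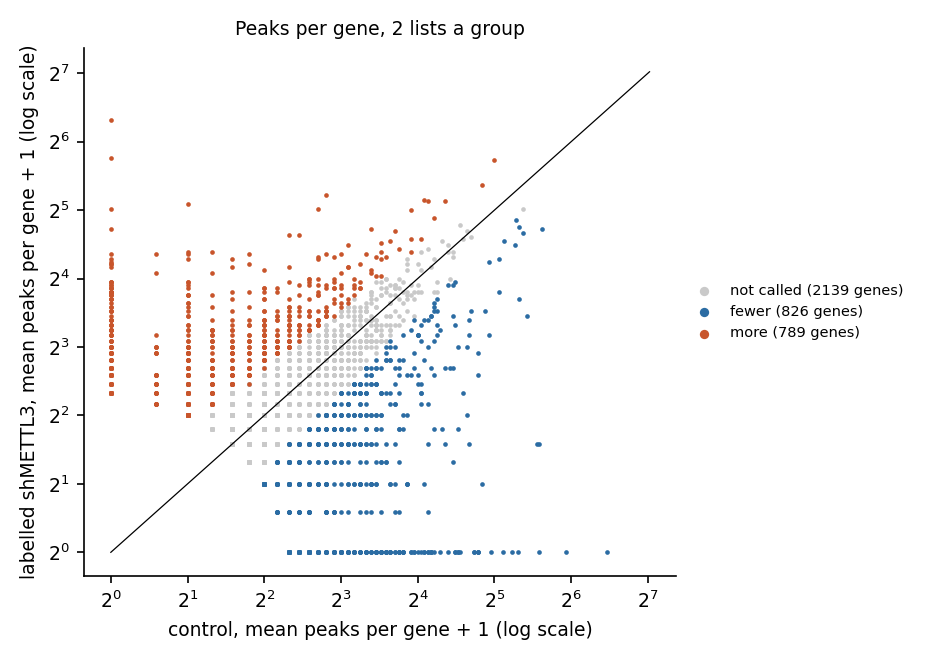
Mean peaks per gene plus 1 in the control lists (x axis, log scale) and in the lists labelled shMETTL3 (y axis, log scale), 1 point per tested gene and 2 lists a group. Blue points are the 826 genes with fewer peaks, orange the 789 with more and grey the 2139 not called; points on the lower and left edges are genes with no peak in one group.

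The falls were led by whole large genes that went to 0. PTPRN2, which encodes a phosphatase-like membrane protein of secretory granules (chr7:157539056-158587823), held 88 and 87 control peaks and 0 and 0 in the lists labelled shMETTL3, and all 78 of its control regions were lost. KCNQ5, a voltage-gated potassium channel subunit (chr6:72622064-73198853), held 60 and 60 against 0 and 0. PLCB4, a phospholipase C (chr20:9068678-9480808), held 47 and 47 against 0 and 0. None of these 3 had a peak in OVCAR8 control. The same held for DIP2C (39 and 38 in control), LOC124900404 (36 and 37), RGS12, a regulator of G-protein signalling (34 and 33), FHIT, a hydrolase gene at a common fragile site (28 and 32), and DOCK3, an exchange factor for Rac (27 and 26), each with 0 peaks in the lists labelled shMETTL3 and in OVCAR8 control.

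In the remaining 4 of the 12 largest falls some peaks were left. CDH4, a cadherin, went from 45 and 49 peaks to 1 and 3, with 2 and 2 in OVCAR8 control, and WDPCP, a ciliogenesis gene, from 46 and 46 to 2 and 2, with 2 and 2. Of the 41 control regions counted in WDPCP, a minus-strand gene, 40 were lost in a plus-strand run, antisense to the gene. TRAPPC9, a subunit of a vesicle-tethering complex, held 41 and 43 against 10 and 10, with 7 and 7 in OVCAR8 control, and GSE1 held 37 and 41 against 12 and 12, with 13 and 14. What remained was in each case close to the OVCAR8 control number. The 12 genes were chosen as the largest falls among called genes, so their separation follows from the choice and no test of them is given. The smallest log2 difference among them was that of GSE1, -1.62 ± 0.18 (SE, limma).

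The largest rise was that of MIR3667HG, a long non-coding RNA gene that hosts a microRNA (chr22:49414524-49657519), with 0 and 0 control peaks and 77 and 81 in the lists labelled shMETTL3. PDE10A, a cyclic nucleotide phosphodiesterase (chr6:165327289-165988052), rose from 0 and 0 to 55 and 52, and PDE4D, another, from 1 and 1 to 21 and 19. OVCAR8 control lists held 118 and 120 peaks in MIR3667HG, 76 and 75 in PDE10A and 56 and 54 in PDE4D, more than the lists labelled shMETTL3 in each. Collagen genes COL5A1 (0 and 0 against 29 and 34) and COL7A1 (0 and 0 against 20 and 19) also went from no peak to many, with 38 and 37, and 29 and 32, in OVCAR8 control. GLIS3, a zinc-finger transcription factor, went from 0 and 0 to 23 and 28, at 54 and 55 in OVCAR8 control, and CTIF, a translation initiation factor at the nuclear cap-binding complex, from 1 and 1 to 32 and 34, at 51 and 48.

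The others among the largest rises already carried peaks in control. PLEKHA6 went from 6 and 6 to 36 and 37, CMIP from 6 and 5 to 31 and 32, CUX1, a homeobox factor, from 5 and 4 to 24 and 24, and BAHCC1, a chromatin protein, from 4 and 4 to 20 and 28. The log2 difference of CUX1 was 2.19 ± 0.23 (SE, limma), the smallest of the rises named here. The rises too were chosen by size among called genes, so no test of them is given. OVCAR8 control held 34 and 37 peaks in CUX1 and 26 and 26 in BAHCC1. For BAHCC1 and COL5A1 the numbers labelled shMETTL3 came within 10 peaks of each OVCAR8 control list, whereas for MIR3667HG, PDE10A and PDE4D they stayed at least 20 below.

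**Figure D4:**
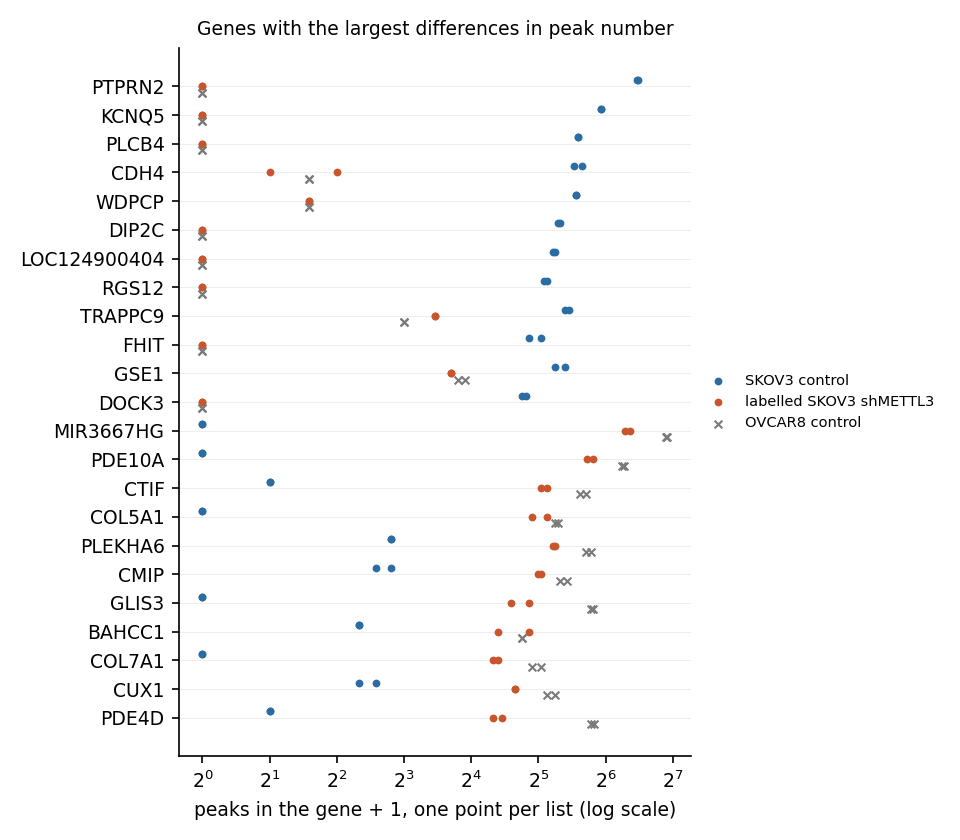
Peaks per gene plus 1 (log scale), 1 point per list, for the 12 genes with the largest falls and 11 genes with the largest rises in mean peak number. Blue points are SKOV3 control, orange points the lists labelled SKOV3 shMETTL3 and grey crosses OVCAR8 control; in 8 of the 12 falls both orange and grey lie at 0 peaks.

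Not every gene with many regions moved. The genes with most control regions of which none was lost, and in which none was gained, were ERICH1, SLC25A24, a mitochondrial carrier, ACSF3, a mitochondrial acyl-CoA synthetase, CHD9, a chromatin remodeller, INVS, a ciliary protein, and ABCF1, which acts in translation initiation. ERICH1 held 14 control and 14 knockdown regions, SLC25A24 13 and 11, and CHD9 10 and 11. The log2 differences of the 6 genes lay between -0.25 (ACSF3) and 0.22 (INVS), and none was called. SLC25A24 held 10 and 11 peaks in OVCAR8 control and CHD9 16 and 14. All 6 of these genes carried peaks in both OVCAR8 control lists.

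Loss often took a gene whole. Among the 1096 genes with at least 5 control regions, 187 (17.1%) lost all of them and 255 (23.3%) lost none, while 175 lost under 25%, 163 from 25 to under 50%, 200 from 50 to under 75% and 116 at least 75% but not all. Of the 999 genes with at least 5 knockdown regions, 110 (11%) gained all and 237 (23.7%) none. In 63 genes at least 2 control regions were lost and at least 2 knockdown regions gained. CYKILR, a long non-coding RNA gene, lost 8 of 14 control regions and gained 17 of 26 knockdown regions, with 17 and 18 control peaks and 29 and 28 in the lists labelled shMETTL3. LINC-PINT lost 23 of 31 and gained 6 of 10, and CDH13, a cadherin, lost 5 of 13 and gained 5 of 16. AHNAK2 lost 4 of 9 and gained 10 of 16, and NAV2 4 of 11 and 15 of 23.

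**Figure D5:**
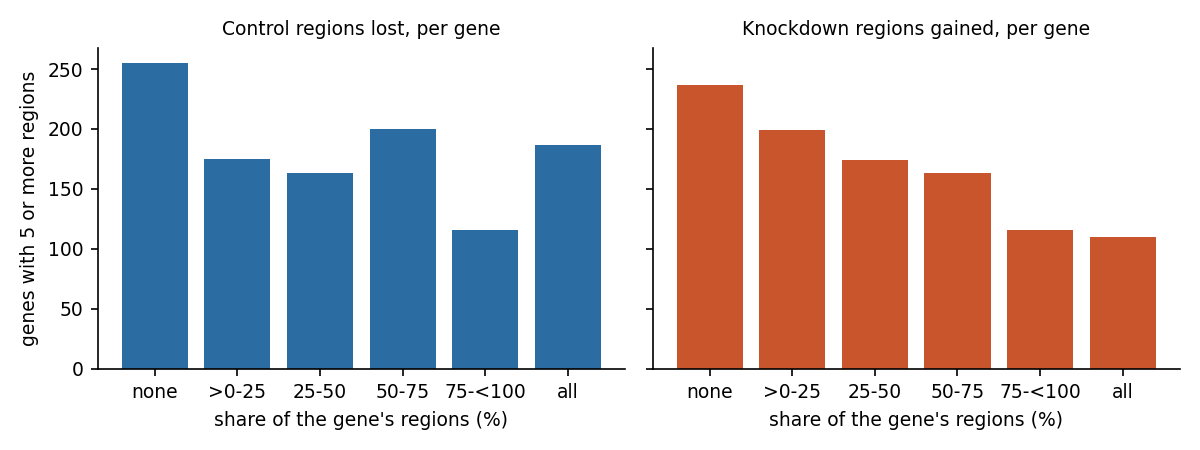
Number of genes by the share of their control regions that was lost (left, 1096 genes) and of their knockdown regions that was gained (right, 999 genes), for genes with at least 5 regions. The outer bars are genes with no region and with all regions affected: 255 and 187 for loss, 237 and 110 for gain.

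Lost and gained regions also followed each other along the chromosome. Of all lost regions 51.8% lay in 594 runs of 5 or more in a row on a strand with no kept or gained region between, and 17.3% stood alone. For gained regions 43.3% lay in 409 such runs and 21.5% alone, and for kept regions 35.5% in 740 runs and 18.5% alone. The longest run of lost regions held 88, the longest of gained regions 69 and the longest of kept regions 20.

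The longest lost run crossed PTPRN2 on the minus strand (chr7:157009282-157843992) and went on past its 3′ end, with 78 of its 88 regions in the gene, and 1 of the 88 had an OVCAR8 control peak. On chromosome 6 a plus-strand run of 79 held 54 regions of KCNQ5 and ran on downstream (chr6:72621562-73473641). Another on the same chromosome held 44 regions over 4103.2 kb around NT5E, with 9 in NT5E and 3 in DOP1A. Runs of 46, 43 and 42 lay at PLCB4, WDPCP and DIP2C, and not 1 of their regions had an OVCAR8 control peak. The run at WDPCP was on the plus strand, opposite to the gene. Among gained runs, 69 regions lay at MIR3667HG, 56 at PDE10A, 34 around PVT1, the long non-coding RNA gene beside MYC, and 33 from COL5A1 onward. The run around PVT1 was on the minus strand (chr8:127108774-127920172), with 14 of its 34 regions counted in PVT1, 4 in CASC21 and 3 in CASC19. A run of 32 on chromosome X (chrX:136925144-142663634) had no more than 1 region counted in any single gene, and one of 29 on chromosome 11 held 16 regions of KIRREL3. Of the 69 regions of the MIR3667HG run 66 had an OVCAR8 control peak, as had all 56 at PDE10A and all 32 on chromosome X.

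Counts of called genes in each list are read against all tested genes, of which 22% had fewer peaks and 21.0% more. The lists were written with earlier results of these data known, so a share above these is a description and no test of a list. In the m6A machinery the called genes, 3 of 11 tested, had fewer peaks, which is near that share. Of 11 writers 4 could be tested, and 1 had fewer: VIRMA, the scaffold of the writer complex, held 7 and 7 control peaks and 4 and 4 in the lists labelled shMETTL3 (3 and 3 in OVCAR8 control). METTL14 held 1 and 1 against 0 and 0 and was too low to test. Of 13 readers and erasers 7 were tested and 2 had fewer, with a median log2 difference of -0.35 against 0.0 over all genes. IGF2BP2, an RNA-binding protein that stabilises marked messages, held 13 and 11 against 0 and 1, with 0 and 1 in OVCAR8 control. FTO, the demethylase, held 7 and 8 against 2 and 2, with 2 and 2 in OVCAR8 control. The nuclear reader gene YTHDC1 held 6 and 6 against 5 and 4, and the eraser gene ALKBH5 1 peak in each of the 4 lists.

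Homologous recombination mends double-strand breaks from an intact copy and is often defective in ovarian carcinoma. Of 30 homologous recombination and Fanconi genes 23 had a peak and 12 were tested; 3 had fewer and 0 more, beside 22% and 21.0% of all tested genes. RAD51B held 15 and 12 control peaks and 3 and 3 in the lists labelled shMETTL3, BRIP1, a helicase partner of BRCA1, 12 and 12 against 4 and 3, and FANCC 4 and 3 against 1 and 1. OVCAR8 control held 1 and 1, 1 and 3, and 3 and 3 in these genes, so FANCC was the one whose OVCAR8 numbers resembled SKOV3 control. BRCA2 held 7 and 7 against 6 and 6 (adjusted p = 0.641 in limma), and BRCA1, at 1 and 1 against 3 and 2, was too low to test. Of the 68 control regions in the list 26 were lost (38.2%) and of 48 knockdown regions 4 gained (8.33%), beside 42.1% and 35.6% over all regions in genes.

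For break signalling and end joining, 3 of 13 tested genes had more peaks, near the 21.0% of all tested genes, and 1 fewer, beside 22%. PARP1, which senses DNA breaks and is the target of PARP inhibitors (chr1:226360691-226408093), held 0 and 0 control peaks and 5 and 5 in the lists labelled shMETTL3 (limma, adjusted p = 7.33e-13), with 5 and 4 in OVCAR8 control. TP53BP1 held 3 and 3 against 5 and 7 and RNF8 1 and 1 against 4 and 2, and XRCC5, a Ku subunit, 4 and 5 against 2 and 1. OVCAR8 control held 5 and 5 peaks in TP53BP1, 2 and 1 in RNF8 and 0 and 0 in XRCC5, and XRCC5 was not called with equal peak numbers. Of 28 base, nucleotide and mismatch repair genes 12 were tested. Of these, 2 had more (DDB2 at 2 and 1 against 5 and 6, ERCC6 at 1 and 1 against 4 and 4) and 1 fewer (ERCC8, 17 and 11 against 5 and 5), beside 21.0% and 22% of all tested genes.

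Among 20 genes of LINE-1 silencing 11 were tested; 2 had fewer peaks and 0 more, beside 22% and 21.0% of all tested genes, with a median log2 difference of 0.0. DNMT1, the maintenance DNA methyltransferase, held 7 and 6 against 4 and 2, and DNMT3A 3 and 3 against 1 and 1; DNMT1 was not called with equal peak numbers and held no peak in OVCAR8 control. The HUSH complex gene TASOR held 6 and 5 against 6 and 5, and MORC2 3 and 4 against 4 and 4, neither called. In chromatin remodelling 4 of 16 tested genes had more and 2 fewer, beside 21.0% and 22% of all. CHD3 held 3 and 3 against 12 and 12, and CHD6 6 and 6 against 11 and 11. SMARCA4 held 16 and 18 against 10 and 10 and PBRM1 9 and 8 against 3 and 3, both subunits of SWI/SNF complexes.

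Of 26 tested histone methyltransferase and demethylase genes 6 had more peaks, near the 21.0% of all tested genes, and 3 fewer, beside 22%. EHMT1 held 11 and 10 against 23 and 21, and KMT2A 4 and 4 against 11 and 10. NSD2 held 17 and 18 against 11 and 10, and NSD3 9 and 11 against 3 and 3. OVCAR8 control held 13 and 12 peaks in KMT2A and 3 and 4 in NSD2.

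The Muellerian and ovarian carcinoma list holds genes that mark the tissue of origin and the tumours that arise from it. Of its 22 genes 7 had a peak and 5 were tested, of which 4 had more and 0 fewer, with a median log2 difference of 2.70, beside 21.0% with more over all tested genes. MECOM held 0 and 0 control peaks and 7 and 7 in the lists labelled shMETTL3, and MUC16, which encodes the CA125 antigen, 0 and 0 against 5 and 6. Both had peaks in OVCAR8 control, at 14 and 14 and at 5 and 5. In total the list held 4 and 6 control peaks and 26 and 27 in the lists labelled shMETTL3. Of the epithelial list, beside 21.0% and 22% of all tested genes, 2 of 7 tested genes had more (LAMA5 at 0 and 0 against 13 and 8, ELF3 at 0 and 0 against 6 and 4) and 2 fewer (TJP1 at 6 and 6 against 2 and 2, LAMB3 at 4 and 4 against 2 and 1).

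Of 8 tested mesenchymal and matrix genes 3 were lower and 2 higher, beside 22% and 21.0% of all tested genes. The list held 67 and 68 control peaks in total and 62 and 65 in the lists labelled shMETTL3. The 2 higher were COL5A1, at 0 and 0 against 29 and 34, and FBN1, at 0 and 1 against 5 and 5. AXL, a receptor tyrosine kinase of mesenchymal-like tumour cells (chr19:41219223-41261766), held 22 and 22 control peaks and 3 and 2 in the lists labelled shMETTL3, and none in OVCAR8 control. ZEB2, a repressor of epithelial genes, held 8 and 7 against 0 and 0, and TGFBI 6 and 6 against 0 and 0, also with none in OVCAR8 control. Its paralog ZEB1 held 12 and 12 against 14 and 14 and was not called. The 3 AXL peaks left in replicate 1 and 2 in replicate 2 had no counterpart in the OVCAR8 control lists.

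Of 28 receptor tyrosine kinase genes 15 had a peak and 9 were tested, of which 6 had more peaks and 2 fewer, beside 21.0% and 22% of all tested genes. IGF1R (chr15:98648539-98964530) held 2 and 2 against 19 and 18, MET 1 and 1 against 9 and 11 and EGFR 6 and 7 against 14 and 13, while FGFR1 held 10 and 11 against 1 and 2. In OVCAR8 control IGF1R held 30 and 32, MET 13 and 12, EGFR 13 and 14 and FGFR1 0 and 0. Of 8 tested receptor tyrosine phosphatase genes 5 were lower and 0 higher, beside 22% and 21.0%. This list, written with earlier results of these data known, includes PTPRN2, the largest fall. Beside PTPRN2, PTPRG held 14 and 14 against 0 and 0, PTPRH 4 and 6 against 0 and 0 and PTPRM 33 and 32 against 17 and 20. The phosphatase list lost 111 of 154 control regions (72.1%, beside 42.1% over all regions in genes), of which 78 were PTPRN2's.

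The other cell-surface and signalling lists are again given beside 22% of all tested genes with fewer peaks and 21.0% with more. They too were written with earlier results known, and include CDH4, PDE10A, PLCB4 and KCNQ5, which are among the largest differences. Cadherins had 2 of 7 tested genes lower, CDH4 and FAT4 (9 and 8 against 4 and 5), and 0 higher. Among phosphodiesterases and phospholipases C 8 of 15 were higher and 1, PLCB4, lower; PDE8B held 0 and 0 against 10 and 9. Of 2 tested potassium channel genes KCNQ5 was lower and KCND3 higher, at 0 and 0 against 7 and 8. Of 9 tested genes of the Wnt list 1 was higher, the co-receptor LRP5 at 0 and 0 against 12 and 13, and 1 lower, FZD6 at 4 and 4 against 1 and 3. In the TGF-beta list 2 of 8 were higher, SMAD3 at 1 and 1 against 6 and 8 and SKIL at 1 and 1 against 3 and 3. The p53 list had 1 of 6 higher, DDB2. In the cell cycle list 3 of 8 were higher, CDK6 at 3 and 3 against 7 and 8, AURKA at 1 and 1 against 3 and 3 and E2F1 at 2 and 0 against 3 and 3, and 1 lower, MAD1L1 at 40 and 36 against 29 and 27. With equal peak numbers in the 4 lists FZD6 and MAD1L1 did not pass. AURKA and E2F1 then had a mean under 2 peaks and were not tested.

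Of 9 tested nuclear long non-coding RNA genes 2 were higher and 2 lower, near the 21.0% and 22% of all tested genes. PVT1 held 16 and 16 against 35 and 34, with 32 and 27 in OVCAR8 control, and MIR100HG 1 and 1 against 6 and 5, with 29 and 32. Of the 16 regions gained in PVT1, 14 lay in the minus-strand run given above. Peaks were counted on either strand, so these counts do not assign the rise to the PVT1 transcript. LINC-PINT held 32 and 33 against 14 and 12, and MIR4435-2HG 27 and 32 against 20 and 16, with 5 and 5 in OVCAR8 control. Of the giant genes at fragile sites 6 of 11 were lower and 3 higher, beside 22% and 21.0%. Beside FHIT, DLG2 held 16 and 15 against 4 and 4 and MACROD2 10 and 10 against 1 and 1, while IMMP2L held 6 and 5 against 18 and 19. In the leukocyte list the single tested gene was not called. MIR4435-2HG and MIR100HG stood between SKOV3 control and OVCAR8 control in number, at a distance from both.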

How the data were processed

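Per the submitters' processing notes, the tools were MACS2 2.2.7.1, HISAT2 2.1.0, Bowtie2 2.4.2 and Trim Galore 0.6.6, with the hg38 build. The authors deposited 1 peak list per library, with a fold enrichment (a linear ratio) and −log10 p and q values per peak. For LOVO and RKO controls they deposited 1 list per group, whose score was not used. The depth of each library is not given in these sources.

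Regions, genes (RefSeq, GRCh38.p14) and overlaps were computed in Python 3.11.15 on chromosomes 1 to 22 and X. Reads at a summit were solved from fold and p, and came out whole (within 0.1) for 100% of peaks with a −log10 p below 250, which were 97.5 to 99.4% of each SKOV3 list. Peaks per gene, plus a pseudocount of 1, were tested with limma 3.58.1 (R 4.3.3) in genes with a mean of at least 2 peaks. A floor on each gene's residual spread, at the trend over genes, was added because small equal whole numbers gave no spread in simulated data and many false calls; the fit as first designed, without the floor, is given as an added alternative. Its p-values rest on a spread pooled over genes. The lists labelled shMETTL3 are called knockdown regions where regions are defined. The genes named were the 12 largest falls and rises among called genes, the 6 genes with most regions all kept, up to 4 called members of each list, METTL3, ERBB2, BRCA1, BRCA2 and PARP1, the 6 longest runs each way, the 3 strongest promoter regions each way outside chromosome 8, and a few list members given for context. Some genes that this choice names are not reported here. Members, lists and tests were chosen with earlier results of these data known. Alternatives varied overlap, threshold, list length, pseudocount, filter, scaling, strand and the lists used. Reads of the libraries, inputs and spike-ins were not analysed here, and neither were the LOVO and RKO knockdown lists.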

Additional observations from a re-analysis of the deposited data

Results flagged for a closer look

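In a limma fit over the 8 ovarian lists, the difference between the lists labelled shMETTL3 and control was compared between SKOV3 and OVCAR8. It differed between the lines in 1956 of 3247 genes (60.2%, adjusted p below 0.05). The genes below were chosen for large SKOV3 differences between the same lists, so their values are descriptions and no test of them is given. On the log2 scale, the SKOV3 difference minus the OVCAR8 difference was -12.36 in PTPRN2, -9.10 in KCNQ5, -8.67 in PLCB4, -6.99 in CDH4, -7.69 in WDPCP, -9.55 in DIP2C, -7.81 in LOC124900404, -9.46 in RGS12, -2.96 in TRAPPC9, -8.65 in FHIT, -1.72 in GSE1 and -7.59 in DOCK3. Among the rises it was 13.23 in MIR3667HG, 12.02 in PDE10A, 8.16 in CTIF, 10.28 in COL5A1, 5.87 in PLEKHA6, 4.70 in CMIP, 10.52 in GLIS3, 5.06 in BAHCC1, 9.33 in COL7A1, 4.68 in CUX1 and 8.20 in PDE4D. The lists labelled OVCAR8 shMETTL3 held 59 and 58 peaks in PTPRN2, where OVCAR8 control had 0 and 0, and 0 and 0 in MIR3667HG, where OVCAR8 control had 118 and 120. In these genes the lists of one line labelled shMETTL3 had peaks where the control of the other line had them.

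Mitochondrial RNA was outside the comparison of chromosomes 1 to 22 and X. It held 14 and 13 peaks in the lists labelled SKOV3 shMETTL3, above the 9 and 7 of SKOV3 control, with 27 and 25 in OVCAR8 control and 21 and 22 in the lists labelled OVCAR8 shMETTL3. Groups of 2 lists are too small to single out a list that lies apart.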

How the results depend on the processing

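The lower peak number kept its direction under the 8 alternatives tried, with log2 ratios from -0.252 (bases covered) to -0.111 (without replicate 1 labelled shMETTL3). With 50% of a region to be covered the share of control regions lost was 50.5% and of knockdown regions gained 41.3%; with equal peak numbers 43.1 and 39.2%; with regions of either replicate 48.6 and 43.8%; with absence from 1 list enough 50.4 and 42.1%; with peaks on either strand counted 43.8 and 35.9%; and with peaks within 500 bp counted 42.1 and 33.6%. At a −log10 q of at least 5 loss was 44.9%. Leaving out 1 list gave 46.7 to 48.0% lost and 38.9 to 41.0% gained. Loss of regions with an OVCAR8 control peak was 6.95% at 50% overlap, 4.35% with equal peak numbers and 2.46% where both OVCAR8 control lists held the region. With no filter 2358 genes had fewer peaks and 1861 more, of 9415 tested, and with a mean of at least 5 peaks 301 and 276, of 1074. Leaving out 1 list gave 317 to 727 genes with fewer and 332 to 522 with more. Without the floor on the spread, the fit as first designed, run as an alternative added after seeing the data, there were 802 and 788, of which 638 and 588 were shared with the reported calls. With at least 10 control regions 58 genes lost all and 23 none. The replicate numbers share only a number: the deviations of same-numbered lists correlated at 0.042 over 3754 genes, and with a replicate block 588 genes had fewer and 515 more. Of 95 named genes 89 kept their call with equal peak numbers, and XRCC5, DNMT1, MAD1L1, AURKA, E2F1 and FZD6 did not pass. AURKA and E2F1 did not pass because they then had too few peaks to be tested. Peaks below about 30 reads at the summit could not be called, so the weakest m6A sites were not detectable at this depth. The cause of these shifts was not tested.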

Other observations

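A minority of regions went against the OVCAR8 pattern, and the genes named here were chosen after their values were seen. There were 1690 control regions kept in the lists labelled shMETTL3 though no OVCAR8 control list held them, spread over 933 genes, with a median of 102.5 reads at the summit. TRIO held 22 of them, with 46 and 50 peaks in SKOV3 control, 24 and 27 in the lists labelled shMETTL3 and 4 and 7 in OVCAR8 control. DST, a cytoskeletal linker, held 13, with 39 and 42, 33 and 30, and 14 and 12 peaks. ARHGAP39 held 11, SAMD4A and MIR4435-2HG 8 each, and the cell adhesion gene ALCAM, the angiomotin family gene AMOTL2 and the histone methyltransferase gene NSD2 7 each. ALCAM kept nearly all its peaks, at 10 and 10 in SKOV3 control and 9 and 9 in the lists labelled shMETTL3, with 2 and 2 in OVCAR8 control.

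The 715 control regions that were lost although OVCAR8 control had a peak on them were scattered over 522 genes, none with more than 3, and had a median of 72 reads at the summit. ZNF512B lost all 4 of its control regions, 3 of them of this kind, with 5 and 4 peaks in control, 0 and 0 in the lists labelled shMETTL3 and 3 and 2 in OVCAR8 control. DDRGK1 held 4 and 4 against 1 and 1, with 4 and 3 in OVCAR8 control, and FARP2 7 and 9 against 5 and 3, with 5 and 5. The 753 gained regions without an OVCAR8 control peak lay in 552 genes and were weak, with a median of 56.5 reads. DNHD1, a dynein heavy chain gene, and SLC35F3 held 6 each; DNHD1 had 1 and 1 peaks in SKOV3 control, 18 and 21 in the lists labelled shMETTL3 and 12 and 14 in OVCAR8 control.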
